A study of Mus musculus with 9 samples.

Results

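Collagens are the main structural proteins of the extracellular matrix, and the 42 collagen genes read on these arrays are described here in intestinal epithelial cells of newborn mice. A gene was taken as a member where its symbol has the form Col, a number, the letter a and a number (Col1a1, Col23a1), in the platform annotation. Where several probe sets carry a symbol alone, the one with the highest mean of the 9 arrays stands for the gene. The 42 members are part of 18193 genes so represented, and comprise 11 fibrillar collagens, 10 collagens of basement membranes and 21 other collagens.

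The study asked what the loss of Tfr1, the transferrin receptor that brings iron into cells, does to the intestinal epithelium. RNA was taken on postnatal day 0 from cells shaken off pieces of small intestine and proximal colon in 2 mM EDTA and passed through a 70 µm mesh, with no sort on a surface marker. There were 3 arrays per group. Control pups were Tfr1fl/fl, in which the gene is flanked by recombination sites and the labels call the pups wildtype. Knockout pups were Tfr1 IEC-KO, the deletion in intestinal epithelial cells. Rescue pups were Tfr1 IEC-KO;ROSA26 Tfr1R654A/+ and so carried, on top of the same knockout, 1 allele of the receptor with the change R654A at the ROSA26 locus. None of the pups was treated. The labels name neither the promoter that drives the recombinase nor the pups' sex, and do not tell whether an array holds 1 pup or several, so p-values measure the spread between these arrays alone.

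A collagen molecule is a triple helix of chains built from repeats of glycine with other residues. Types I, III and V assemble into the fibrils that give tissue its tensile strength, type IV forms the sheet-like network of basement membranes, and type VI forms beaded filaments close to cells. In the gut the epithelium rests on a basement membrane, and fibroblasts, smooth muscle and endothelium below it are the main sources of collagen, although epithelial cells make some members themselves. Newly made chains are hydroxylated on proline and lysine by enzymes that need iron, and this step lets the helix fold.

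Promoter sequences are shown for Col6a1, Col6a2 and Col23a1. These are the members called higher on knockout arrays whose upstream bases hold no transcribed part of a neighbouring collagen gene. Each line gives the 250 bases before the annotated start, 5′ to 3′ on the strand of the gene, from RefSeq's promoter table for the build GRCm38.p6. Col6a1 lies at chr10:76726045-76726294 on the minus strand, Col6a2 at chr10:76623631-76623880 on the minus strand, and Col23a1 at chr11:51289670-51289919 on the plus strand. Capitals mark matches on either strand to 4 short motifs. They are CCAAT for the CCAAT box, GGGCGG for the GC box, TATAAA for the TATA box and TGAGTCA for the AP-1 site.
Col6a1: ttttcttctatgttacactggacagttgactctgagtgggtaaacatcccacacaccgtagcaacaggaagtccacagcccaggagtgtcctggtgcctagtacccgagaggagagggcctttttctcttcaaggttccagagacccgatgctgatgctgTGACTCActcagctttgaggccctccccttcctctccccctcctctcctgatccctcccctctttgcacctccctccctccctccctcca
Col6a2: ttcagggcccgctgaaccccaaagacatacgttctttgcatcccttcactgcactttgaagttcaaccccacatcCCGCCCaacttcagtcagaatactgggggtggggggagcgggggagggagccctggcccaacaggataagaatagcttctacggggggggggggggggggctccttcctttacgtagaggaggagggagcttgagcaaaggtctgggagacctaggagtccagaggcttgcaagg
Col23a1: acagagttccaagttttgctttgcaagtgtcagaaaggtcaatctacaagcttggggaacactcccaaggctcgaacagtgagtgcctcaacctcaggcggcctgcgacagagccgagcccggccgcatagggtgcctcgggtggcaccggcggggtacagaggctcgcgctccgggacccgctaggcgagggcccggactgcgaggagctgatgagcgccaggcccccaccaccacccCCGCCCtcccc
The capitals in Col6a1 are a match to TGAGTCA read on the other strand, and those in Col6a2 and Col23a1 are matches to GGGCGG read on the other strand. The table held 33 of the 42 members and 27025 genes in all. TGAGTCA was found in the 250 bases of 1 of 33 collagens, Col6a1, against 5.16% of all genes. GGGCGG was found in 20 of 33, against 35.4% of all genes, with 6 of 8 fibrillar, 5 of 9 basement membrane and 9 of 16 other collagens. CCAAT was found in 13 of 33, against 37.5% of all genes, with 3 of 8 fibrillar, 6 of 9 basement membrane and 4 of 16 other collagens. TATAAA was found in 5 of 33, against 14.3% of all genes. Col4a1 and Col4a2 lie head to head on opposite strands of chromosome 8. Their annotated starts lie 21 bases apart, with no gap between the genes: the annotated first exons share 22 bases. Col4a1 and Col4a2 both held CCAAT, as did Col18a1, Col1a2 and Col5a3, among others. These matches describe letters in a window and name no site of binding.

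Several facts of the arrays bear on every value below. Some epithelial genes read high on all 9 arrays: the enterocyte gene Fabp2 14.2 to 14.4, the epithelial adhesion gene Epcam 12.9 to 13.5 and Vil1, which encodes villin, 11.8 to 12.4 (log2). Other epithelium markers were less steady. Between knockout and control Cdx2 changed by -0.74 and Krt19 by 1.65 (limma, adjusted p = 0.011 and 0.019). High epithelial values do not exclude RNA of other cells. The targeted gene, Tfrc, was read by 3 probe sets with its symbol alone, which changed by 0.04, -0.28 and -0.36 between knockout and control (limma, adjusted p = 0.97, 0.28 and 0.13). On each of these probe sets knockout replicate 3 was the lowest of the 9 arrays. The first read 10.21, 10.78 and 9.88 on control arrays and 10.76, 11.16 and 9.07 on knockout arrays. The deleted part is not named in the labels, so these values do not check the deletion. In rescue arrays 2 of the 3 probe sets were higher than in knockout by 4.98 and 4.53 (limma, adjusted p = 1.2e-06 and 1.3e-06). Knockout replicates 1 and 2 stood apart from knockout replicate 3 in the markers of other cells of the gut wall. The median of 21 fibroblast markers, with no collagen among them, exceeded the control mean by 3.10 in knockout replicate 1, 2.68 in replicate 2 and 0.19 in replicate 3, so results are given with and without replicate 3. The rescue pups differed from the others in sex-specific transcripts: Xist read 12.02 to 12.75 on control and knockout arrays and 6.45 to 6.83 on rescue arrays, so genotype and sex cannot be told apart in comparisons with rescue.

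A pair of basement membrane collagens, a pair of type VI chains and Col23a1 were called higher on knockout arrays, and no collagen was called lower. A gene was called where limma's p, adjusted over all 18193 genes, was under 0.05. Between knockout and control 5 of 42 collagens were called, Col4a1, Col4a2, Col6a1, Col6a2 and Col23a1, against 14.1% of all genes. All 5 were higher, against 5.29% of all genes called higher, and 0 were lower, against 8.77%. An unadjusted p under 0.05 was reached by 22 of 42, against 30.1% of all genes. In 13 collagens all knockout arrays lay above all control arrays, against 12.7% of all genes. The median log2 change of the 42 was 0.44, against -0.04 over all genes. By class the median was 0.93 for fibrillar, 0.30 for basement membrane and 0.23 for other collagens, and the calls were 0 of 11, 2 of 10 and 3 of 21.

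In 23 of 42 collagens knockout replicates 1 and 2 both lay above all control arrays, against 22.8% of all genes. Replicate 3 lay above all control arrays too in 13 of these 23 and did not in the other 10, a split near that of all genes, where the share was 55.7%. The shares were 4 of 8 fibrillar, 3 of 4 basement membrane and 6 of 11 other collagens. In 1 of the 23, Col23a1, replicate 3 was the highest knockout array, against 714 of 4151 among all genes with replicates 1 and 2 above control. Outside the 23, replicate 3 was the highest knockout array in further members, Col7a1, Col20a1 and Col25a1 among them. Without replicate 3 the test called 21 collagens, 20 higher and 1, Col7a1, lower, against 27.5% of all genes. With replicate 3 as the sole knockout array it called 1, Col23a1, against 14.1% of all genes, with that array's spread assumed to be like that of the other groups.

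Between rescue and knockout 0 of 42 collagens were called, against 2.31% of all genes, and 15 had an unadjusted p under 0.05 by limma, against 18.9%. Without knockout replicate 3 the count was 20, 19 lower and 1, Col7a1, higher in rescue, against 15.4% of all genes. In 10 collagens all rescue arrays lay below all knockout arrays, against 7.5% of all genes: Col4a1, Col4a2, Col5a1, Col6a1, Col6a2, Col6a3, Col6a4, Col19a1, Col23a1 and Col24a1. The median change of the 42 was -0.45, against 0.04 over all genes. Between rescue and control 0 of 42 were called, against 0.126% of all genes, and 0 had an unadjusted p under 0.05 by limma, against 6.62%. All rescue arrays lay above all control arrays in 7 collagens, against 6.74% of all genes, and below them in 1, Col7a1, against 9.9%. The 7 were Col1a1, Col1a2, Col3a1, Col5a2, Col5a3, Col14a1 and Col16a1, of which 5 are fibrillar. The median change of the 42 was 0.08, against -0.01 over all genes. These comparisons share arrays with each other, so their changes are not independent.

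**Figure D1:**
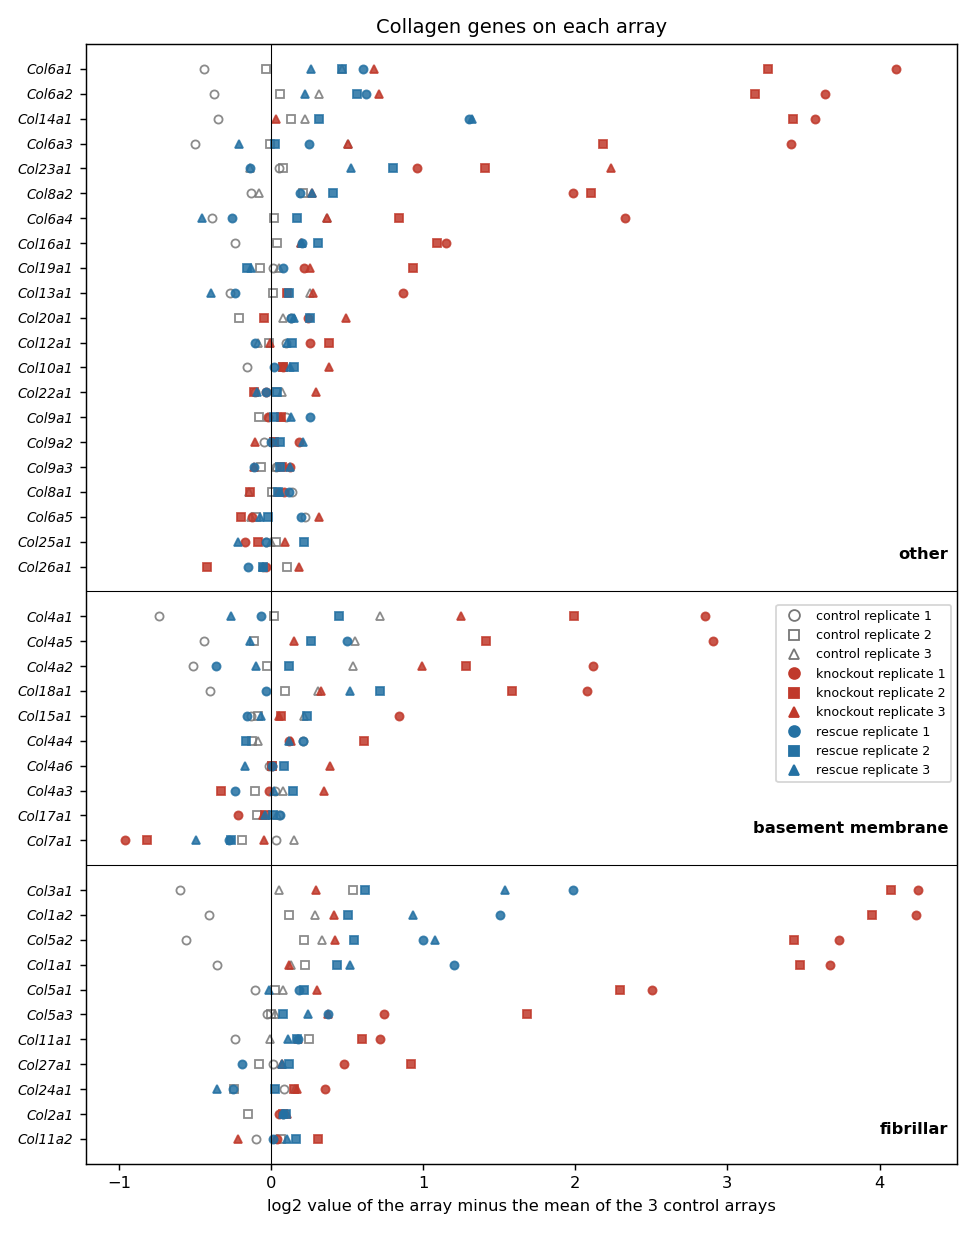
Each of the 42 collagens (vertical axis, by class) on each of the 9 arrays, as the log2 value of the array minus the mean of the 3 control arrays (horizontal axis). Knockout replicates 1 and 2 lie far to the right for many members, while replicate 3 lies near the control arrays for most of them and farthest right for Col23a1.

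Fibrillar collagens showed the largest differences on single arrays, but their knockout arrays disagreed. Of 11, 0 were called, against 14.1% of all genes, and 8 had an unadjusted p under 0.05 by limma, against 30.1%. Col1a1 and Col1a2 encode the chains of type I collagen, the main collagen of fibrils. Col1a1 read 6.85, 7.44 and 7.34 on control arrays, 10.88, 10.69 and 7.33 on knockout arrays, and 8.41, 7.64 and 7.73 on rescue arrays (log2 RMA level). Knockout replicates 1 and 2 were high, replicate 3 lay among the control arrays, and all rescue arrays lay above control. The difference between knockout and control was 2.43 ± 0.82 (SE, 5.37-fold, adjusted p = 0.084). Col1a2 read 7.95, 8.48 and 8.65 on control arrays, 12.60, 12.31 and 8.77 on knockout arrays, and 9.87, 8.87 and 9.29 on rescue arrays. All knockout and all rescue arrays lay above control, replicate 3 by a narrow margin. The difference between knockout and control was 2.87 ± 0.88 (7.29-fold, adjusted p = 0.064), and from control to rescue it was 0.98 ± 0.88 (adjusted p = 1.0).

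Col3a1 encodes type III collagen, which forms thin fibrils in soft tissue and vessel walls. It read 8.42, 9.56 and 9.07 on control arrays, 13.27, 13.09 and 9.31 on knockout arrays, and 11.00, 9.63 and 10.56 on rescue arrays. Knockout replicate 3 lay within the control range, and rescue lay between control and the other knockout arrays. Its difference was 2.87 ± 0.95 between knockout and control (7.33-fold, adjusted p = 0.081) and 1.38 ± 0.95 between rescue and control (2.60-fold, adjusted p = 0.99), with the latter the largest of the 42 between those groups. Col5a1, a chain of type V collagen, which starts fibrils, read 6.72, 6.85 and 6.90 on control arrays, 9.33, 9.12 and 7.13 on knockout arrays, and 7.01, 7.04 and 6.82 on rescue arrays. Here control and rescue arrays overlapped and all knockout arrays were above both. The difference was 1.70 ± 0.49 between knockout and control (3.25-fold, adjusted p = 0.052) and -1.57 ± 0.49 between rescue and knockout (adjusted p = 0.14). Col5a2, another chain of type V, read 5.23, 6.01 and 6.12 on control arrays, 9.52, 9.22 and 6.21 on knockout arrays, and 6.79, 6.33 and 6.86 on rescue arrays. All rescue arrays lay above knockout replicate 3, which itself lay just above control. The difference between knockout and control was 2.53 ± 0.76 (at least 5.77-fold, adjusted p = 0.060). The words at least before a fold mean that the lower group mean was in the dimmest 40% of genes, where background flattens differences.

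Col27a1, a fibrillar collagen best known from cartilage, read 8.08, 7.98 and 8.13 on control arrays, 8.54, 8.98 and 8.13 on knockout arrays, and 7.87, 8.18 and 8.13 on rescue arrays. Knockout replicate 3 equalled the highest control array to 2 decimals, and the difference between knockout and control was 0.49 ± 0.20 (adjusted p = 0.14). The other 5 fibrillar members lay in the dimmest 40% of genes by their mean, and their differences between knockout and control ran from 0.04 to 0.93. The highest was that of Col5a3, the remaining type V chain, at 0.93 ± 0.28 (at least 1.91-fold, adjusted p = 0.062), with all knockout arrays above all control arrays. Col2a1 and Col11a2, collagens of cartilage, read 5.14 to 5.40 and 5.52 to 6.04 over all 9 arrays. Without knockout replicate 3 the differences of Col1a1, Col1a2, Col3a1, Col5a1 and Col5a2 between knockout and control were 3.58, 4.09, 4.16, 2.40 and 3.58, all called (adjusted p = 2.7e-05 to 4.5e-04). With replicate 3 as the sole knockout array they were 0.12, 0.41, 0.29, 0.30 and 0.42, with 0 called.

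**Figure D2:**
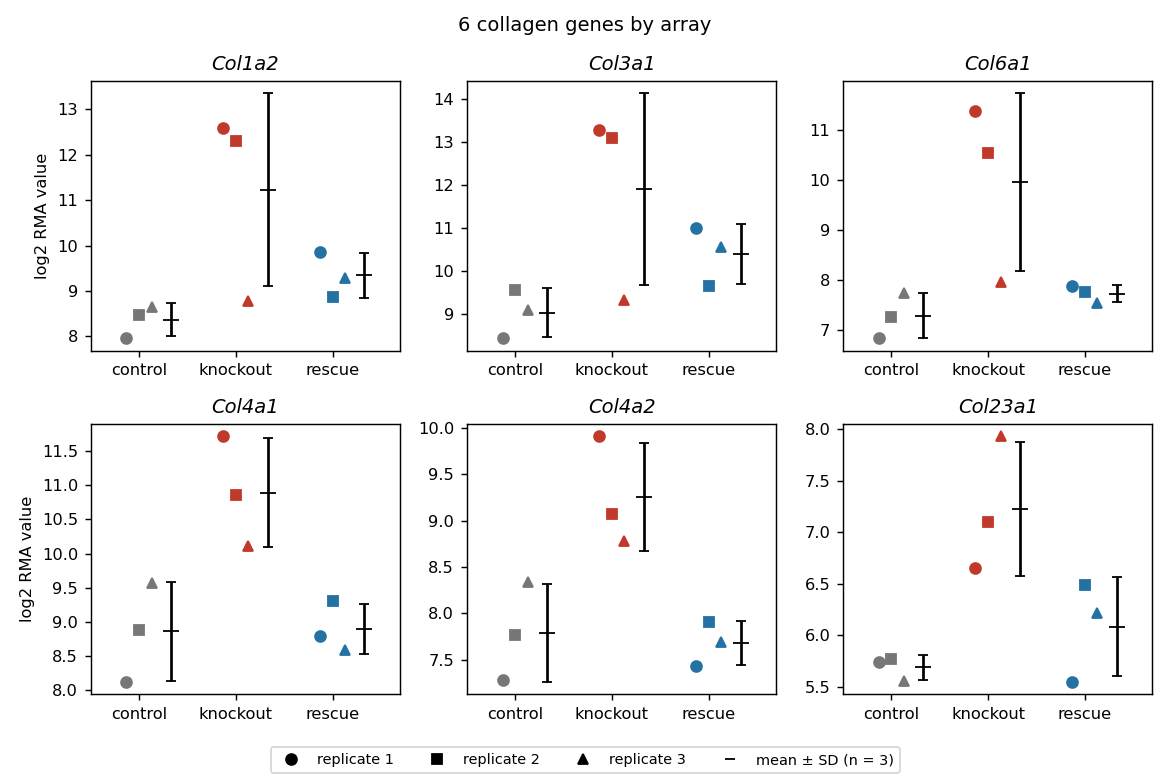
Log2 RMA value (vertical axis, a separate scale in each panel) of 6 collagens on each array by group, with the mean and SD of the 3 arrays. In Col1a2, Col3a1 and Col6a1 knockout replicate 3 (triangle) lies near control, in Col4a1 and Col4a2 it lies above every control array, and in Col23a1 it is the highest.

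Basement membrane collagens held a pair of calls, Col4a1 and Col4a2, which encode the chains of the type IV network found in nearly all basement membranes. Col4a1 read 8.13, 8.88 and 9.57 on control arrays, 11.71, 10.85 and 10.11 on knockout arrays, and 8.80, 9.31 and 8.60 on rescue arrays. All knockout arrays lay above all others, and control and rescue overlapped. Col4a1 rose by 2.03 ± 0.46 on knockout arrays (4.08-fold, adjusted p = 0.022). From knockout to rescue it differed by -1.99 ± 0.46 (adjusted p = 0.065), and from control to rescue by 0.04 ± 0.46 (adjusted p = 1.0). Col4a2 read 7.28, 7.77 and 8.34 on control arrays, 9.91, 9.07 and 8.79 on knockout arrays, and 7.44, 7.91 and 7.69 on rescue arrays. The arrays fell in the same order within the control and knockout groups as for Col4a1. Col4a2 rose by 1.46 ± 0.33 on knockout arrays (2.76-fold, adjusted p = 0.023), and its difference between rescue and knockout was -1.58 ± 0.33 (adjusted p = 0.051). The calls of Col4a1 and Col4a2 were lost without control replicate 1 or 2 or knockout replicate 1, and that of Col4a1 also without knockout replicate 2. The adjusted p of each reached 0.24 over the 18 alternatives.

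Col18a1 encodes type XVIII collagen, a proteoglycan of basement membranes and the source of endostatin. It read 7.58, 8.07 and 8.28 on control arrays, 10.05, 9.56 and 8.31 on knockout arrays, and 7.94, 8.69 and 8.50 on rescue arrays. Knockout replicate 3 lay just above the highest control array and below 2 of the rescue arrays. The difference between knockout and control was 1.33 ± 0.42 (2.51-fold, adjusted p = 0.069). Col7a1, whose protein forms the anchoring fibrils that hold an epithelium to the matrix below, was the member with the most negative difference. It read 6.78, 6.55 and 6.90 on control arrays, 5.79, 5.93 and 6.70 on knockout arrays, and 6.47, 6.48 and 6.25 on rescue arrays. All rescue arrays lay below control, and knockout replicates 1 and 2 lay below all of them. The difference was -0.60 ± 0.22 between knockout and control (adjusted p = 0.11) and -0.34 ± 0.22 between rescue and control (adjusted p = 0.98). Without knockout replicate 3 Col7a1 fell by 0.88 on knockout arrays (adjusted p = 0.0022).

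The other 6 basement membrane members were dim, with differences between knockout and control from -0.10 to 1.49 and 0 called. Col4a5, an X-linked type IV chain, read 5.07, 5.40 and 6.06 on control arrays, 8.42, 6.93 and 5.66 on knockout arrays, and 6.01, 5.77 and 5.37 on rescue arrays. Knockout replicate 3 lay among the control arrays, and the difference was 1.49 ± 0.60 (at least 2.81-fold, adjusted p = 0.13). Col4a3, Col4a4, Col4a6, Col15a1 and Col17a1 differed by less than 0.50 in either direction. Of these, Col4a4 has a dimmer probe set that was called over all probe sets with 1 symbol, at 0.78 (adjusted p = 0.029). The X-linked members read 5.07 to 8.42 (Col4a5) and 5.73 to 6.29 (Col4a6), and for them too the sex of the rescue pups cannot be told apart from their genotype.

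Type VI collagen, the beaded filament that links cells to the matrix around them, gave the largest calls. Col6a1 read 6.84, 7.24 and 7.74 on control arrays, 11.38, 10.54 and 7.95 on knockout arrays, and 7.88, 7.74 and 7.54 on rescue arrays. Knockout replicate 3 lay just above the highest control array, and rescue overlapped control. Col6a1 rose by 2.68 ± 0.73 on knockout arrays (6.43-fold, adjusted p = 0.045), and its difference between rescue and knockout was -2.24 ± 0.73 (adjusted p = 0.16). Col6a2 read 7.91, 8.34 and 8.60 on control arrays, 11.92, 11.47 and 9.00 on knockout arrays, and 8.91, 8.85 and 8.51 on rescue arrays. Rescue overlapped control and lay below all knockout arrays. Col6a2 rose by 2.51 ± 0.65 (5.70-fold, adjusted p = 0.036), with -2.04 ± 0.65 between rescue and knockout (adjusted p = 0.15). Each of these calls was kept in 1 of the 9 fits without an array, that without knockout replicate 3, where the rises were 3.69 and 3.41. With replicate 3 as the sole knockout array the differences were 0.68 and 0.71 (adjusted p = 0.20 and 0.13).

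Col6a3, the third chain of the classical type VI molecule, read 6.94, 7.43 and 7.94 on control arrays, 10.86, 9.62 and 7.94 on knockout arrays, and 7.68, 7.46 and 7.23 on rescue arrays. Replicate 3 did not exceed the highest control array. The difference was 2.03 ± 0.62 between knockout and control (4.10-fold, adjusted p = 0.063) and -2.01 ± 0.62 between rescue and knockout (adjusted p = 0.14). Col6a4, a further type VI chain, read 6.67, 7.07 and 7.42 on control arrays, 9.38, 7.90 and 7.42 on knockout arrays, and 6.80, 7.23 and 6.60 on rescue arrays. Replicate 1 stood far above the other knockout arrays, and the difference between knockout and control was 1.18 ± 0.45 (2.26-fold, adjusted p = 0.12). Col6a5, another such chain, read 2.41 to 2.93 over all arrays.

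Col23a1, which encodes a collagen that spans the cell membrane, differed from the other called members in the order of its knockout arrays. It read 5.74, 5.77 and 5.55 on control arrays, 6.65, 7.10 and 7.93 on knockout arrays, and 5.55, 6.49 and 6.21 on rescue arrays. Knockout replicate 3 was the highest, all knockout arrays lay above all others, and rescue replicates 2 and 3 lay above control. Col23a1 rose by 1.53 ± 0.33 on knockout arrays (at least 2.90-fold, adjusted p = 0.019). Its difference was -1.14 ± 0.33 between rescue and knockout (adjusted p = 0.12) and 0.40 ± 0.33 between rescue and control (adjusted p = 1.0). All 3 of its probe sets were called over the 34945 probe sets with 1 symbol that are not array controls, at 1.53, 1.46 and 1.14 (adjusted p = 0.021, 0.014 and 0.0021). The call held in 15 of 18 alternatives and was lost without control replicate 1, 2 or 3 (adjusted p up to 0.076). With the mean of the fibroblast markers as a covariate Col23a1 was the 1 collagen called, against 10.6% of all genes, at 2.40 (adjusted p = 0.0035). That covariate was far higher on knockout replicates 1 and 2 than on replicate 3, where Col23a1 was highest. Where replicate 3 stood alone for the knockout the difference of Col23a1 was 2.24.

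Collagens that decorate or link fibrils did not pass the test. Col14a1, a collagen on the surface of fibrils, read 5.46, 5.94 and 6.03 on control arrays, 9.39, 9.24 and 5.84 on knockout arrays, and 7.11, 6.13 and 7.13 on rescue arrays. Replicate 3 lay among the control arrays and below every rescue array. The difference between knockout and control was 2.35 ± 0.83 (at least 5.08-fold, adjusted p = 0.098), and from control to rescue it was 0.98 ± 0.83 (adjusted p = 1.0). Col16a1, of the same group of collagens, read 6.38, 6.66 and 6.81 on control arrays, 7.77, 7.71 and 6.82 on knockout arrays, and 6.82, 6.93 and 6.82 on rescue arrays. All knockout and rescue arrays lay above control, some barely so, with 0.81 ± 0.24 between knockout and control (1.75-fold, adjusted p = 0.057).

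Col12a1, which also binds fibrils, read 6.28, 6.17 and 6.10 on control arrays, 6.44, 6.57 and 6.17 on knockout arrays, and 6.08, 6.32 and 6.29 on rescue arrays (0.21 ± 0.13 between knockout and control, adjusted p = 0.31). Its probe sets disagreed. A dimmer one read 4.61, 4.75 and 5.16 on control arrays and 8.14, 7.20 and 5.45 on knockout arrays, a rise of 2.09 (adjusted p = 0.047 over all probe sets with 1 symbol), while the remaining pair changed by -0.14 and -0.17. Col25a1, a membrane collagen of neurons, showed the same split. Its brighter probe set read 7.35, 7.42 and 7.38 on control arrays, 7.21, 7.30 and 7.47 on knockout arrays, and 7.35, 7.60 and 7.17 on rescue arrays, so the groups overlapped. The dimmer one read 3.74, 4.04 and 3.96 on control and 6.32, 5.30 and 3.94 on knockout arrays (1.27, adjusted p = 0.14). Over the family, 27 of 42 members had more than 1 probe set, and 11 of 82 collagen probe sets, from 7 genes, were called between knockout and control when each was tested on its own, against 10.7% of all single-symbol probe sets.

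Col20a1, Col9a1 and Col9a3 showed small differences between groups. Col20a1, a collagen of the fibril-associated group, read 6.63, 6.29 and 6.58 on control arrays, 6.74, 6.45 and 6.99 on knockout arrays, and 6.63, 6.76 and 6.65 on rescue arrays. Col9a1, a chain of the type IX collagen of cartilage, read 6.31, 6.14 and 6.19 on control arrays, 6.19, 6.28 and 6.28 on knockout arrays, and 6.47, 6.24 and 6.34 on rescue arrays. Col9a3, another type IX chain, read 6.51, 6.42 and 6.51 on control arrays, 6.60, 6.55 and 6.37 on knockout arrays, and 6.37, 6.54 and 6.61 on rescue arrays. Groups overlapped for all 3, with 0.23 ± 0.15, 0.04 ± 0.10 and 0.03 ± 0.10 between knockout and control. Of the 9 dim members outside the fibrillar and basement membrane classes, 8 differed by less than 0.50 in either direction. The exception was Col8a2, a chain of a network-forming collagen, which read 3.40, 3.74 and 3.45 on control arrays, 5.51, 5.63 and 3.80 on knockout arrays, and 3.72, 3.93 and 3.80 on rescue arrays. All knockout arrays lay above control, replicate 3 barely so, with 1.45 ± 0.42 (at least 2.74-fold, adjusted p = 0.052). The 8 were Col6a5, Col8a1, Col9a2, Col10a1, Col13a1, Col19a1, Col22a1 and Col26a1.

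**Figure D3:**
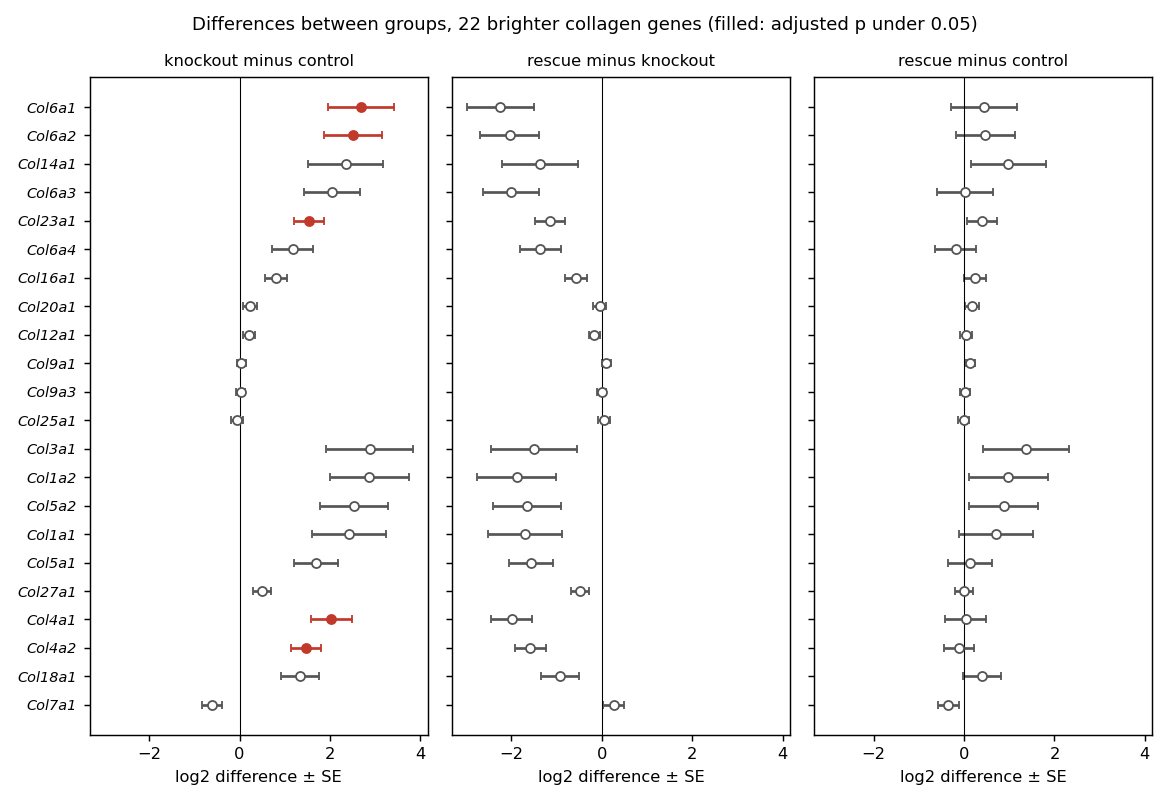
Log2 difference (horizontal axis) with its standard error for the 22 collagens above the dimmest 40% of genes, in the 3 comparisons, with filled points for an adjusted p under 0.05. The 5 filled points are all in knockout minus control, and most points of rescue minus control lie within a standard error or so of 0.

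Several collagen genes lie next to each other among the protein-coding genes of RefSeq's annotation of GRCm38.p6, and some of these pairs differed alike while others did not. Col6a1 and Col6a2 (2.68 and 2.51 between knockout and control), Col4a1 and Col4a2 (2.03 and 1.46), and Col3a1 and Col5a2 (2.87 and 2.53) had similar differences. Col4a5 and Col4a6, on the X chromosome, had 1.49 and 0.13. Col6a4 and Col6a5 had 1.18 and -0.0028, Col19a1 and Col9a1 had 0.47 and 0.04, and Col4a4 and Col4a3 had 0.29 and 0.0046. Of the members with the smaller difference, Col4a6, Col6a5 and Col4a3 lay in the dimmest 40% of genes. So did Col4a5, Col4a4 and Col19a1, which had the larger difference of their pairs.

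Medians of the markers of other cells of the gut wall were higher on knockout replicates 1 and 2 than on replicate 3, as was that of the fibrillar collagens. The medians of the lists, as log2 distance from the control mean, were as follows in knockout replicates 1, 2 and 3. Fibroblast markers (21 genes) lay at 3.10, 2.68 and 0.19, smooth muscle markers (10) at 2.90, 1.47 and 0.16, and neuron and glia markers (9) at 3.01, 1.33 and 0.22. Endothelium (11) lay at 1.41, 0.50 and 0.10, leukocytes (12) at 1.64, 1.26 and 0.28, and mesothelium (6) at 1.10, 1.94 and 0.73. Fibrillar collagens lay at 0.74, 1.68 and 0.17, basement membrane collagens at 0.48, 0.34 and 0.24, and other collagens at 0.24, 0.11 and 0.27. The 22 brighter collagens together lay at 2.22, 1.50 and 0.32. These were picked by a mean that includes the knockout arrays, which favours members high on those arrays. Col5a2, Col14a1 and Col23a1, for example, were dim by their control means. The medians of the 22 are thus partly set by that choice and are not evidence of a shared change. Most of the marker lists, and to a lesser degree the fibrillar collagens, were thus higher on knockout replicates 1 and 2 than on replicate 3. The medians of the basement membrane and other collagens showed no such gap. Epithelium markers (12) lay at 0.21, 0.06 and 0.17. In bulk RNA, more cells of a type and more RNA per cell cannot be told apart.

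Pdgfra and Vim are examples of these markers. The fibroblast marker Pdgfra read 6.94, 7.64 and 8.51 on control arrays, 10.48, 9.54 and 8.92 on knockout arrays, and 7.67, 8.33 and 7.37 on rescue arrays. Pdgfra rose by 1.95 ± 0.49 on knockout arrays (3.86-fold, adjusted p = 0.032). Its arrays fell in the same order within control and within knockout as those of some collagens. These include Col4a1, Col4a2, Col6a1, Col6a2, Col6a3, Col6a4 and Col18a1. Other members, Col1a1, Col3a1 and Col23a1 among them, had another order. How many of all genes share the order of Pdgfra was not counted. The mesenchymal filament gene Vim read 6.44, 7.51 and 7.84 on control and 11.71, 11.43 and 7.64 on knockout arrays. Of the markers, 3 of 21 fibroblast, 1 of 10 smooth muscle, 1 of 11 endothelium, 2 of 9 neuron and glia and 4 of 6 mesothelium genes were called higher, against 5.29% of all genes. The mesothelium list shares Krt19 with the epithelium list. Among leukocyte genes 4 of 12 were higher and 1 lower, against 5.29% and 8.77%, and the same counts held for epithelium. The mean level of the 21 fibroblast markers was 5.79 to 6.32 on control arrays, 8.93, 8.50 and 6.29 on knockout arrays and 6.41 to 6.73 on rescue arrays. Twist1 read 3.52 to 3.93 on all arrays, and it was the dimmest of the fibroblast markers. Endothelium markers differed among the control arrays as well, with replicate 1 lowest (-0.53) and replicate 3 highest (0.55). The same 2 arrays were the lowest and highest control arrays for the fibroblast markers (-0.32 and 0.15) and for the median of the 42 collagens (-0.10 and 0.08). Among single members Col4a1, Col4a2, Col6a1, Col6a2 and Col18a1, with others, had this order, while Col1a1, Col3a1 and Col23a1 did not. With the fibroblast mean as a covariate the differences of Col4a1, Col4a2, Col6a1 and Col6a2 between knockout and control were 0.97, 0.80, 0.37 and 0.47 (adjusted p = 0.24, 0.24, 0.22 and 0.073). As the fibroblast mean was far higher on knockout replicates 1 and 2 than on any other array, this fit cannot separate cell content from genotype. The part that cells of the gut wall play in the collagen values was not tested. In rescue arrays fibroblast markers lay 0.45, 0.50 and 0.23 above the control mean. All rescue arrays lay above all control arrays in 9 of 21, against 6.74% of all genes.

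**Figure D4:**
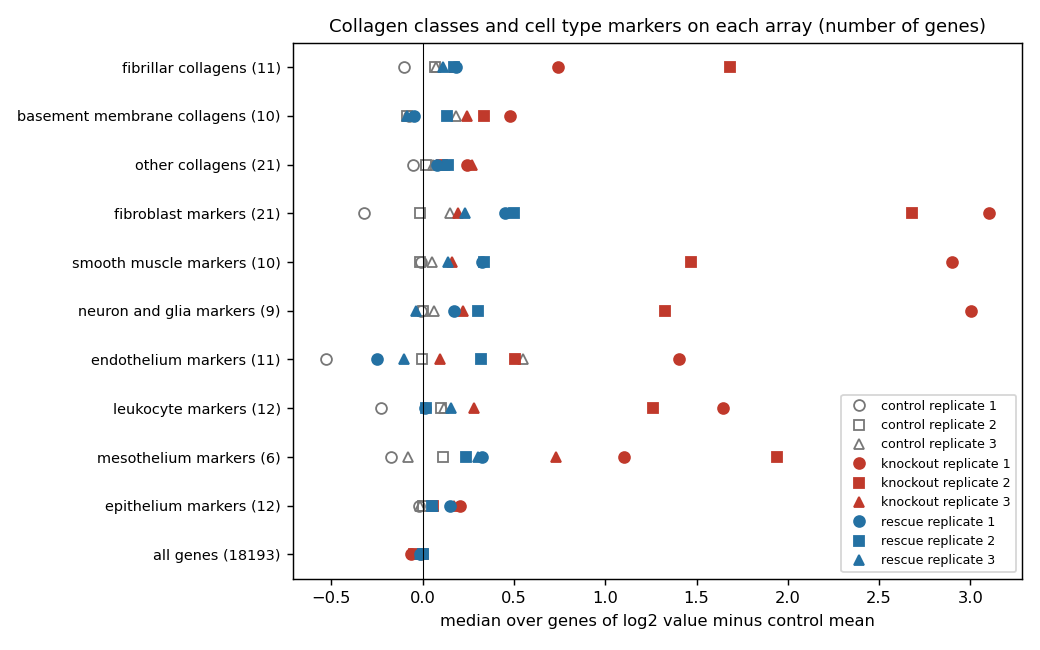
Median over the genes of each list of the log2 value minus the control mean (horizontal axis), for each array. Fibroblast, smooth muscle, and neuron and glia markers reach about 3 in knockout replicate 1, all lists lie below 1 in knockout replicate 3, and epithelium markers stay near 0 on every array.

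Among enzymes and chaperones that build collagen, P4ha1 rose and Tmem38b fell on all knockout arrays. Of 33 measured genes for chain synthesis and processing, 5 rose, against 5.29% of all genes, and 2 fell, against 8.77%, with a median of the knockout arrays 0.20, 0.39 and 0.10 above control. P4ha1, the catalytic subunit of an iron-dependent prolyl hydroxylase, read 5.89, 5.97 and 6.07 on control arrays, 7.40, 7.44 and 6.90 on knockout arrays, and 6.59, 6.52 and 6.55 on rescue arrays. The groups did not overlap, with rescue in between, and P4ha1 rose by 1.27 ± 0.15 (at least 2.42-fold, adjusted p = 0.0017). Its difference between rescue and knockout was -0.69 ± 0.15 (adjusted p = 0.051). Tmem38b, an ion channel of the endoplasmic reticulum needed for type I collagen in bone, read 8.72, 8.82 and 8.99 on control arrays, 7.81, 7.74 and 7.84 on knockout arrays, and 8.56, 8.30 and 8.19 on rescue arrays. It fell by 1.04 ± 0.12 (2.06-fold, adjusted p = 0.0018), alike on all knockout arrays. Pcolce, which speeds the removal of the propeptide of fibrillar collagens, rose by 1.50 ± 0.32 (2.84-fold, adjusted p = 0.018) and P3h4, a partner of collagen hydroxylases, by 0.80 ± 0.16 (1.75-fold, adjusted p = 0.016). Between rescue and knockout and between rescue and control 0 of the 33 were called by limma, against 2.31% and 0.126% of all genes. An unadjusted p under 0.05 was reached by 10 and 2, against 18.9% and 6.62%.

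Proteases that cleave collagen gave calls in which all knockout arrays lay above all control arrays. Of 8 measured, 4 were called higher and 0 lower between knockout and control, against 5.29% and 8.77% of all genes. Between rescue and knockout 2 fell, against 1.08%. Mmp14, a membrane-bound collagenase, read 6.89, 6.91 and 6.88 on control arrays, 8.49, 8.18 and 8.27 on knockout arrays, and 6.95, 6.86 and 6.78 on rescue arrays. Control and rescue overlapped and all knockout arrays, replicate 3 included, were higher. It rose by 1.42 ± 0.10 (2.67-fold, adjusted p = 3.2e-04) and fell by 1.45 from knockout to rescue (adjusted p = 0.0011). Mmp7, matrilysin, which epithelial cells make, read 7.81, 7.53 and 7.72 on control arrays, 9.53, 9.20 and 9.26 on knockout arrays, and 7.71, 8.04 and 8.29 on rescue arrays. It rose by 1.65 ± 0.16 (3.13-fold, adjusted p = 9.9e-04) and fell by 1.32 from knockout to rescue (adjusted p = 0.0091). The lysosomal protease gene Ctsk was higher by 0.75 ± 0.13 (at least 1.68-fold, adjusted p = 0.0087), and the neutrophil collagenase gene Mmp8 by 0.59 ± 0.17 (at least 1.51-fold, adjusted p = 0.050).

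Among collagen receptors 2 of 10 measured were called higher on knockout arrays, against 5.29% of all genes, and 0 were called lower, against 8.77%. Ddr1, a receptor tyrosine kinase of epithelial cells, read 9.67, 9.39 and 9.65 on control arrays, 9.87, 10.15 and 10.34 on knockout arrays, and 9.86, 9.64 and 9.71 on rescue arrays. As with Col23a1, replicate 3 was the highest knockout array. Ddr1 rose by 0.55 ± 0.14 (1.46-fold, adjusted p = 0.038). Mrc2, which takes up collagen fragments, rose by 1.28 ± 0.36 (at least 2.42-fold, adjusted p = 0.049).

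Proteins that share the basement membrane with type IV collagen gave 6 of 17 higher and 0 lower between knockout and control, against 5.29% and 8.77% of all genes. Between rescue and knockout 2 were lower, against 1.08%. Nid1, or nidogen, which ties laminin to type IV collagen, read 7.54, 8.33 and 8.65 on control arrays, 11.01, 10.83 and 10.25 on knockout arrays, and 8.88, 9.23 and 9.20 on rescue arrays. All knockout arrays were well above the rest, and all rescue arrays lay above control. Nid1 rose by 2.52 ± 0.30 (5.74-fold, adjusted p = 0.0018) and fell by 1.59 from knockout to rescue (adjusted p = 0.036). Lamb3, a chain of the laminin that epithelial cells anchor to, read 6.04, 6.36 and 5.94 on control arrays, 7.30, 7.78 and 8.77 on knockout arrays, and 6.22, 6.46 and 6.36 on rescue arrays. Like Col23a1 and Ddr1 it was highest in replicate 3. Its rise was 1.84 ± 0.32 (at least 3.57-fold, adjusted p = 0.0083), and it fell by 1.60 from knockout to rescue (adjusted p = 0.043). Agrn, or agrin, a proteoglycan, rose by 1.05 ± 0.17 (2.07-fold, limma, adjusted p = 0.0060). It too was highest in replicate 3, narrowly, at 10.31, 10.09 and 10.38 on knockout arrays. Lama2, a laminin chain of muscle and mesenchyme, rose by 1.20 ± 0.26 (at least 2.29-fold, limma, adjusted p = 0.021).

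Of 15 genes for proteins that bind collagen fibrils, 2 rose between knockout and control, against 5.29% of all genes, and 10 had an unadjusted p under 0.05, against 30.1%. Thbs1, thrombospondin, read 6.39, 6.44 and 6.50 on control arrays, 8.44, 7.56 and 7.15 on knockout arrays, and 6.73, 6.62 and 6.02 on rescue arrays, a rise of 1.28 ± 0.31 (2.42-fold, adjusted p = 0.030). Bgn, the small proteoglycan biglycan, read 6.59, 7.16 and 7.63 on control arrays, 9.81, 9.29 and 7.64 on knockout arrays, and 7.26, 7.54 and 7.40 on rescue arrays, a rise of 1.78 ± 0.50 (3.45-fold, adjusted p = 0.048). Replicate 3 lay clearly above the control arrays for Thbs1 and barely above them for Bgn. The list's median exceeded control by 2.53, 2.16 and 0.11 in the 3 knockout arrays. Between rescue and knockout 0 of the 15 were called by limma, against 2.31% of all genes. An unadjusted p under 0.05 was reached by 4, against 18.9%.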

How the data were processed

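Deposited values are on the log2 scale, for 45101 probe sets on each of 9 Affymetrix arrays. They were made with RMA and Partek 6.5, per the submitters' processing notes. How RMA corrected background, whether probes were filtered and when arrays were scanned is not given in the sources used here. Log2 values were used as the authors deposited them. The platform annotation paired 34958 probe sets with 1 symbol, 932 with several and 9211 with none. Array controls left out, 34945 single-symbol probe sets remained, and the one with the highest mean stood for each of 18193 genes. All 36 pairs of arrays were compared and 0 were identical. Array medians lay between 5.93 and 6.00. Precision is limited by the number of arrays, 3 per group.

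A model with 3 group means was fitted over all genes and arrays with limma 3.58.1 in R 4.3.3 (lmFit, eBayes; version 1.17.8 of the package data.table). Tests were two-sided, adjusted by Benjamini-Hochberg over all genes of a comparison, with a threshold of 0.05, and errors are limma's standard errors. The procedure was tested on simulated data. Members with a mean above the dimmest 40% of genes, and any called member, are given array by array, and the others by range and count. From each related list up to 4 called genes with the smallest p are named. Chromosome neighbours and promoter sequences came from RefSeq tables, which held 42 and 33 of the 42 members. The members and lists were chosen with earlier results of these data known. The alternatives were another choice of probe set, a second quantile normalization, a filter on dim genes, only the groups compared, the replicate number as a block, array weights, a fibroblast covariate, knockout replicate 3 as the sole knockout array, and leaving out each array.

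Control, knockout and rescue arrays share replicate numbers in their titles. Deviations of same-numbered arrays from their group means correlated between -0.22 and 0.40, so the numbers were not taken to pair the arrays.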

Additional observations from a re-analysis of the deposited data

How the results depend on the processing

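Calls of collagens depended on the arrays and on the fit more than their directions did: no called change reversed under any alternative run. Between knockout and control, against 5 called, the count was 7 with the mean of all probe sets. It was 5 without probe sets whose names end in _x_at, _s_at or _a_at (4 shared) and 5 after a second quantile normalization. In these fits the share of all tested genes called was near that of the main fit. The count was 10 with the filter on dim genes, where the share rose too, to 22% of the genes kept. The count was 23 with array weights, which called 35.2% of all genes. It was 1, Col23a1, when only the groups compared were fitted (9.1% of all genes) or with the fibroblast covariate (10.6%). Leaving out single arrays gave 0 to 21, while 5.14% to 27.5% of all genes were called. The count was 0 without control replicate 1 or 2 (6.06% and 6.66%), 2 without control replicate 3 (5.14%) and 1 without knockout replicate 1 (8.95%). It was 3 without knockout replicate 2 or any rescue array (10.8% to 12%), and 21 without knockout replicate 3 (27.5%). Between rescue and knockout, against 0 called, the count was 2 with the mean of all probe sets (2.33% of all genes) and 2 with the filter on dim genes (4.16% of those kept). It was 1 after quantile normalization (2.17%) or with the fibroblast covariate (4.63%), and 18 with array weights (13.5%). Without single arrays it was 0 to 20, with 20 without knockout replicate 3 (15.4%). Between rescue and control the count was 0 in all alternatives run. Of 2199 comparisons of a member's test with an alternative, 89 gained a call, 39 lost it and 2071 did neither.

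With the replicate number as a block the counts were 5 (4 shared, with Col8a2 in place of Col6a1), 0 and 0, against 13.2%, 1.41% and 0.066% of all genes. The numbers were not shown to pair the arrays.

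Dim probe sets limit what can be seen: 20 of 42 members lay in the dimmest 40% of genes, and RMA values carry no detection call.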
